A study of Mus musculus with 1019 samples.

Results

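Solute carriers are membrane proteins that move amino acids, sugars, ions, metals, vitamins, nucleotides and mitochondrial metabolites down or against their gradients, and each gene of the family is named Slc with a family number and a member number. T cells use them to take up glutamine, leucine and glucose when activated, to exchange ATP and phosphate with mitochondria, and to empty lysosomes and endosomes of degradation products. Here the family was taken as every gene symbol in the UMI table that began with Slc, a number, the letter a and a number, with at least 20 unique molecular identifiers (UMIs, each standing for 1 captured mRNA molecule) summed over all cells. The glucose transporters Slc2a1 and Slc2a3 were left out of the set beforehand. Of 23725 genes in the table, 343 symbols had such a name, 206 of them had at least 1 UMI, 101 reached 20 UMIs and 99 made up the set described here. The set was therefore chosen by its abundance in these same libraries, and its abundance is a description only. A further 105 symbols had 1 to 19 UMIs and 137 had none. At the edge of the rule, Slc12a2, Slc22a5 and Slc37a1 entered with 20 UMIs each, and Slc10a1 and Slc25a40 stayed outside with 19.

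The cells were regulatory T cells (Tregs) of male B6 mice aged 20 months, gated in both tissues as negative for DAPI and positive for TCRb, CD4 and CD25, and profiled with inDrops, in which each mRNA is labelled near its 3' end inside a droplet. One group came from spleen (1 library, 375 cells) and the other from epididymal visceral adipose tissue (VAT; library 2 with 330 cells and library 3 with 314 cells, numbered as in the labels). No transgene, Cre or treatment was named in the labels. The fields that describe the spleen cells do not match each other in tissue or replicate number, and the stated source was used to group them. No animal was named, so each library was 1 sample, cells were not used as replicates, and differences were described without a test. Spleens were dissociated mechanically whereas VAT was digested with enzymes, so tissue and dissociation cannot be told apart in any difference given below.

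The libraries held 548770 to 573622 UMIs with a median of 1423 to 1611 per cell, and 0 to 2 cell barcodes were shared between any pair. All 11 measured Treg and CD4 T cell markers were detected in every library, among them Foxp3 with 221, 263 and 189 UMIs in the spleen library, VAT library 2 and VAT library 3. Markers of erythroid, B, myeloid and stromal cells were more abundant in spleen: erythroid markers summed to 204, 1.8 and 1.82 CPM (UMIs of a gene per 1000000 UMIs of its library), B cell markers to 157, 30.6 and 49.2, the 14 myeloid markers, in spleen nearly all from Ctss, to 371, 27.0 and 21.9, and stromal and endothelial markers, in spleen nearly all from Pecam1 (29, 1 and 2 UMIs), to 55.8, 5.39 and 7.29. Markers of CD8 and NK cells (57.5, 64.7 and 58.3 CPM) and adipocytes (20.9, 18.0 and 20.0) were at similar sums. Of the myeloid markers, 7 were at 0 in every library (Adgre1, C1qa, C1qb, C1qc, Cd14, Fcgr3 and Mrc1), as were Cd79a, Ebf1 and Pax5 of B cells. The summed immediate early genes stood at 1107, 24030 and 21816 CPM. The part of these differences in the solute carrier values was not tested.

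The summed level of the 99 genes was nearly equal in the 3 libraries, while single genes differed. They held 0.451% of UMIs in spleen (exact Clopper-Pearson 95% interval 0.434 to 0.468), 0.451% in VAT library 2 (0.434 to 0.469) and 0.455% in VAT library 3 (0.437 to 0.473). In CPM these sums were 4508, 4514 and 4548, a ratio to spleen of 1.0 (exact conditional binomial 95% interval 0.947 to 1.06) for VAT library 2 and 1.01 (0.955 to 1.07) for VAT library 3. All intervals reflect counting error alone, and they are too narrow because UMIs of a gene came in clumps, as described below. Scaling to totals free of ribosomal protein genes, which moved the median log2 ratio of all genes by -0.21, gave a summed ratio of 0.87 over both VAT libraries. UMIs were read from the 3' end, 1 per molecule, so levels needed no division by gene length. The set was steeply graded: the mitochondrial carriers Slc25a5 and Slc25a3 held 1450 of its 7592 UMIs (19.1%) and the 10 most abundant genes 42.3%.

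A gene was called higher or lower when its CPM, with 0.5 added to each count, was at least 2-fold apart from spleen in the same direction in both VAT libraries. By that rule 8 of 99 genes (8.08%) were higher in VAT and 6 (6.06%) lower, against 10.5% higher and 6.45% lower among all 7429 genes with 20 or more UMIs, so the shares were close to those of the table. Most of the called genes were scarce. Of the 42 members with at least 50 UMIs, 1 was higher (Slc25a24) and 1 lower (Slc7a2), 2.38% in each direction, where 10.3% and 4.4% of all genes of that abundance were called. Among the 57 members with 20 to 49 UMIs, 12.3% were higher and 8.77% lower, beside 10.9% and 9.84% of all such genes. The median log2 ratio of the members was 0.19 in VAT library 2 and -0.02 in VAT library 3, and that of all genes 0.04 and -0.06. Both comparisons used the same spleen library, which moves both ratios of a gene together. For 65 members neither interval excluded a ratio of 1. That share was not computed for all genes, so 65 is no result about the family.

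**Figure D1:**
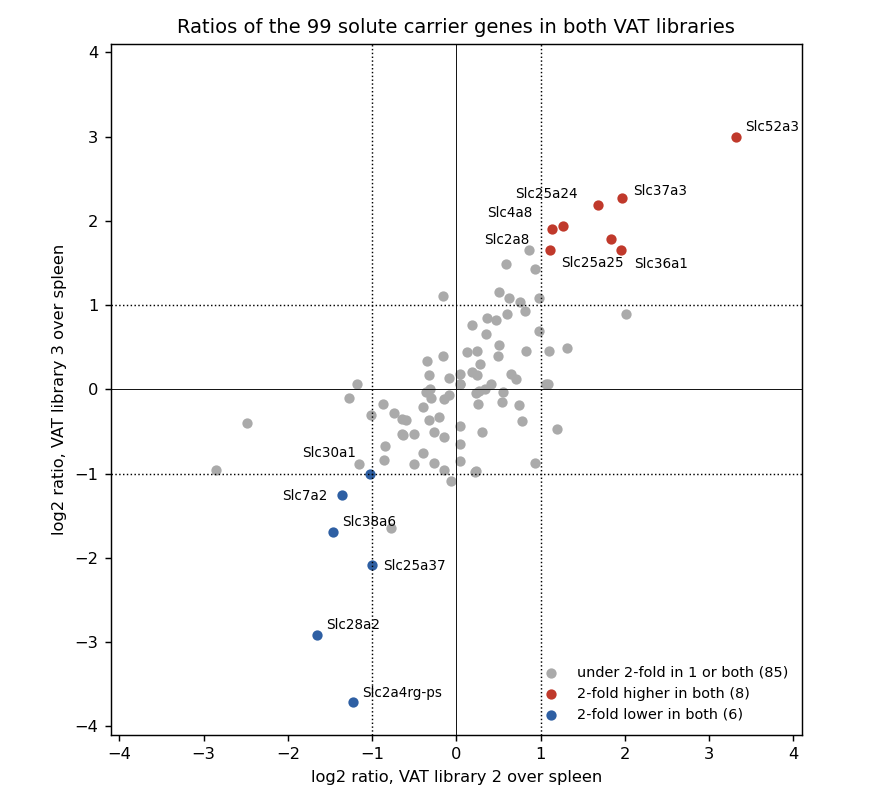
Each point is 1 of 99 solute carrier genes, with the log2 ratio of VAT library 2 to spleen on the x axis and that of VAT library 3 to spleen on the y axis; dotted lines mark 2-fold. The 8 red points passed 2-fold upward in both libraries, the 6 blue points downward, and the 85 grey points passed in at most 1 library or in neither.

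Named genes called higher served unrelated substrates: riboflavin (Slc52a3), ATP-Mg and phosphate exchange in mitochondria (Slc25a24, Slc25a25), lysosomal amino acid export (Slc36a1), bicarbonate (Slc4a8) and intracellular glucose transport (Slc2a8). Slc37a3, also higher, was placed with the sugar carriers by its family alone. The genes called lower served purine nucleosides (Slc28a2), cationic and neutral amino acids (Slc7a2, Slc38a6), zinc export (Slc30a1) and mitochondrial iron import (Slc25a37), and 1 was a pseudogene (Slc2a4rg-ps). Slc30a1 and Slc25a37 lay at the 2-fold edge. Within the set, 14 genes were called and 85 were not.

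**Figure D2:**
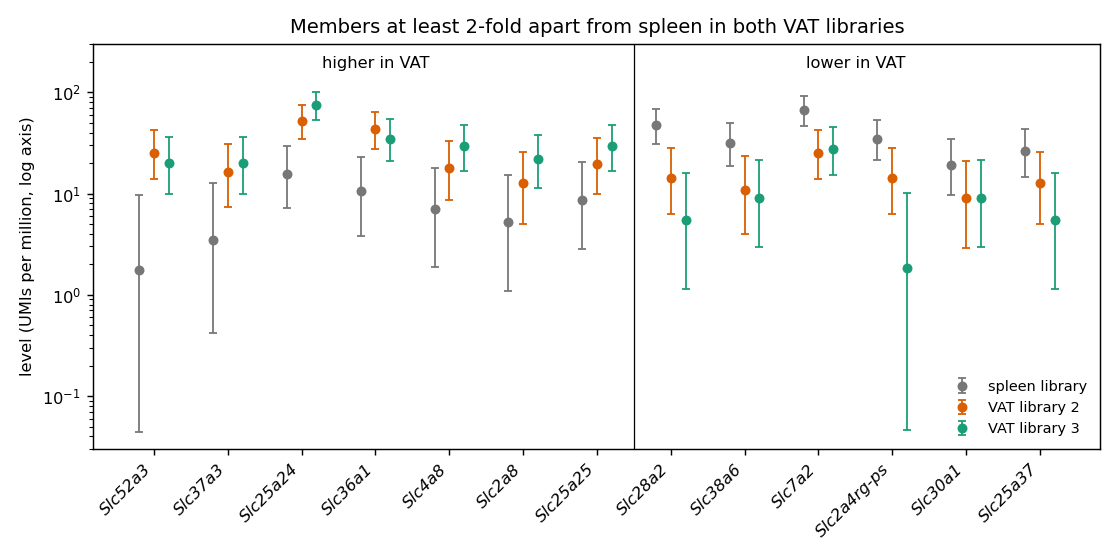
Level in CPM on a log axis of 13 called genes in the spleen library (grey), VAT library 2 (orange) and VAT library 3 (green), with exact Poisson 95% intervals of the counts as bars. Intervals of several genes overlap between spleen and VAT, as those of Slc30a1 and Slc25a25 do, whereas Slc25a24 runs from 15.7 CPM in spleen to 52.1 and 74.7 in VAT.

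Sequences upstream of called genes are shown because members that move together in a comparison can be searched for shared motifs. RefSeq promoter windows on GRCm38.p6 were matched for 69 of 99 members and 9 of 14 called genes, of which 6 were higher and 3 lower. Shown are the 3 higher genes with the largest ratios among those matched, and all 3 matched lower genes, of which Slc30a1 lay at the 2-fold edge. Each run gives up to 250 bases before the gene start, 5' to 3' on the gene's strand, with the motif letters in capitals where a searched motif was present.
Slc37a3, chr6:39377708-39377957, minus strand, higher in VAT, capitals mark an E-box: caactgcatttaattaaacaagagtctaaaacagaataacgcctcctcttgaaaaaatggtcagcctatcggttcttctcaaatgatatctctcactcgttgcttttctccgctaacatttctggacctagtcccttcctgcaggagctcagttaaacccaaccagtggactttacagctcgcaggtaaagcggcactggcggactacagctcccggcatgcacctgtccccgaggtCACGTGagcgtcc
Slc36a1, chr11:55204090-55204339, plus strand, higher in VAT, capitals mark an E-box: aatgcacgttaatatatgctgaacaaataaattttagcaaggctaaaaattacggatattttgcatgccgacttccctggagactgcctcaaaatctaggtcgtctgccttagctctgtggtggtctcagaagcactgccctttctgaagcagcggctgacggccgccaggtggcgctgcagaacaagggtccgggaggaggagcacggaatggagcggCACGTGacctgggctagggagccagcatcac
Slc25a24, chr3:109122899-109123148, plus strand, higher in VAT, no searched motif: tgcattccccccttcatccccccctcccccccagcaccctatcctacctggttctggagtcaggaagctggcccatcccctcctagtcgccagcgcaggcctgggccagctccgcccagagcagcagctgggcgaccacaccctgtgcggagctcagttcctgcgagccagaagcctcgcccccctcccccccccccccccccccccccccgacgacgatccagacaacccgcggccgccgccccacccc
Slc28a2, chr2:122426185-122426434, plus strand, lower in VAT, no searched motif: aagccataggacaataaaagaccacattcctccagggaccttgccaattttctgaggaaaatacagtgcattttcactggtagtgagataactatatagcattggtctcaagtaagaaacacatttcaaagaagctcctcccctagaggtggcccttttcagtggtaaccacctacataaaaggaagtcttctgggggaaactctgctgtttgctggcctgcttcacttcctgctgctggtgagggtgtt
Slc38a6, chr12:73286598-73286778, plus strand, lower in VAT, capitals mark a cyclic AMP response element: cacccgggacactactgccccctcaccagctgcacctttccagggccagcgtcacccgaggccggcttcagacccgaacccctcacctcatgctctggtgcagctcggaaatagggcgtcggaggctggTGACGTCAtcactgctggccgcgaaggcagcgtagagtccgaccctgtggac
Slc30a1, chr1:191906531-191906766, plus strand, lower in VAT, capitals mark a metal response element on the other strand: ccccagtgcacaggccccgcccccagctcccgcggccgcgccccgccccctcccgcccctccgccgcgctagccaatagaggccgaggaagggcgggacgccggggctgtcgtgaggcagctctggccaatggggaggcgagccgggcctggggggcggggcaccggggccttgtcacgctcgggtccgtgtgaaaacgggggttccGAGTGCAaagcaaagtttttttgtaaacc

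On both strands, the E-box CACGTG was found in 13% of member windows (9 of 69) and 6.04% of all 27025 windows, and in 2 of the 6 windows of genes called higher. The AP-1 motif TGANTCA was found in 5.8% of member windows and 6.85% of all, and in 0 of those 6. The cyclic AMP response element TGACGTCA was found in 1.45% and 1.6%, the ATF4 and C/EBP element TGATGNAA in 2.9% and 3.53%, and the metal response element in 11.6% and 10.3% as TGCACNC and in 17.4% and 12.6% as TGCGCNC. Member windows had a median GC content of 61.2% against 52.0% for all windows, which alters how often a GC-rich motif is met. A match describes letters in this window and no more.

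**Figure D3:**
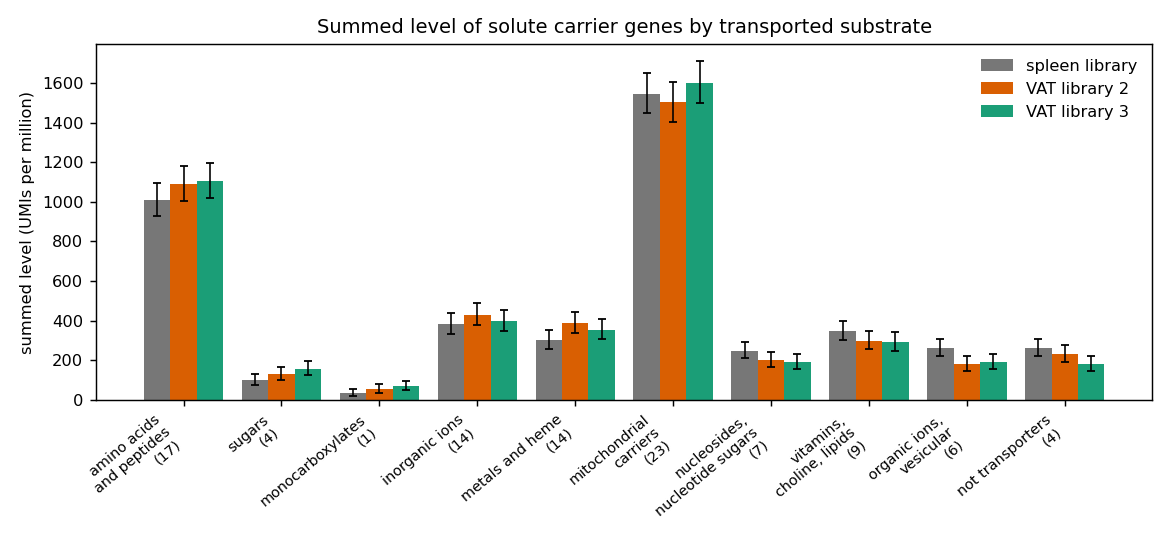
Summed CPM of the solute carrier genes of each substrate class in the spleen library and both VAT libraries as bars, with exact Poisson 95% intervals as whiskers. Mitochondrial carriers stand highest, at 1546, 1502 and 1602 CPM, followed by amino acid carriers at 1011, 1090 and 1106 CPM.

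Amino acid and peptide carriers numbered 17 and held 22.4% to 24.3% of the set's UMIs. Their sum was 1011, 1090 and 1106 CPM in the spleen library, VAT library 2 and VAT library 3, a ratio of 1.08 (0.96 to 1.21) and 1.09 (0.975 to 1.23), which turned to 0.94 over both with totals free of ribosomal protein genes. Of the 17, 1 was called higher and 2 lower. Slc38a2, a sodium-coupled importer of small neutral amino acids, had 57, 85 and 116 UMIs, or 99.4, 153 and 211 CPM, so that both VAT libraries lay above spleen, by 1.54-fold (1.09 to 2.19) and 2.13-fold (1.54 to 2.97). Slc38a10, a related carrier, had 29, 56 and 59 UMIs and ratios of 1.99 (1.25 to 3.24) and 2.13 (1.34 to 3.44). Both stayed outside the 2-fold rule because of VAT library 2, and in both libraries their intervals lay above 1. Slc38a1, which also imports small neutral amino acids with sodium, went the other way, with 47, 32 and 24 UMIs and ratios of 0.702 (0.434 to 1.12) and 0.534 (0.312 to 0.891).

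Glutamine and leucine entry was represented by Slc1a5 (ASCT2), a neutral amino acid exchanger, and by Slc3a2, the CD98 heavy chain that carries light chains of the Slc7 family to the surface. Slc1a5 had 79, 97 and 76 UMIs, with ratios of 1.27 (0.931 to 1.73) and 1.01 (0.724 to 1.4), so VAT library 3 equalled spleen. Slc3a2 had 68, 93 and 86 UMIs (119, 167 and 157 CPM), above spleen in both VAT libraries with ratios of 1.41 (1.02 to 1.96) and 1.32 (0.951 to 1.84), whereas in cells with a Foxp3 UMI its log2 ratio over both was -0.23. Its light chains were much scarcer than the heavy chain. Slc7a5 (LAT1) had 9, 7 and 8 UMIs, and 6 light chain symbols together had 26, 10 and 15. Slc7a6, another light chain, had 8, 3 and 4 UMIs and missed the threshold of the set. A UMI of both Slc3a2 and Slc7a5 was found in 4, 3 and 1 cells, so their joint presence could not be followed at this depth.

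Cationic amino acid carriers went different ways. Slc7a2 (CAT2, chr8:40862396-40922308), which imports arginine and lysine, had 38, 14 and 15 UMIs in the spleen library, VAT library 2 and VAT library 3. Both VAT values lay below spleen, by 2.63-fold (1.39 to 5.26) and 2.42-fold (1.3 to 4.74). Slc7a1 (CAT1), its relative, had 10, 18 and 31 UMIs, with ratios of 1.86 (0.813 to 4.5) and 3.24 (1.55 to 7.41), and was named after its values were seen. Slc7a14, a lysosomal relative of the cationic carriers, was the most abundant amino acid gene in spleen with 116 UMIs (202 CPM), against 50 and 60 UMIs in VAT. Its ratios of 0.445 (0.313 to 0.625) and 0.541 (0.389 to 0.745) fell short of 2-fold in VAT library 3. Without Slc7a14 the summed amino acid class stood higher in VAT, at 1.24-fold (1.09 to 1.4) and 1.23-fold (1.09 to 1.4), above the ratios with it. Slc7a14 was left out with values in view, and leaving out a gene that is lower in VAT raises the sum in any case. This reduced sum was not rescaled to totals free of ribosomal protein genes.

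Slc38a6 (chr12:73286779-73354049), a little-characterised member of the neutral amino acid family, had 18, 6 and 5 UMIs, which placed VAT 2.91-fold (1.11 to 8.95) and 3.44-fold (1.23 to 11.9) below spleen. Slc36a1 (chr11:55204350-55236330), which exports small amino acids from lysosomes with protons, had 6, 24 and 19 UMIs and was higher by 4.13-fold (1.64 to 12.3) and 3.31-fold (1.27 to 10.1). Its log2 ratio over both VAT libraries was 1.80, and dropped below 2-fold at 0.76 in thinned cells and 0.87 in cells with a Foxp3 UMI. Together with the lysosomal carriers Slc15a3, Slc15a4 and Slc38a9 it summed to 59.3, 106 and 91.1 CPM, a ratio of 1.79 (1.15 to 2.82) and 1.54 (0.975 to 2.45). This grouping was made with values in view, and Slc36a1 holds 34.3% of it. Slc15a3, which moves histidine and small peptides out of endolysosomes, had 9, 10 and 15 UMIs, and its exons overlap Tmem132a on the other strand (0, 0 and 2 UMIs). The 14 amino acid genes not called had 22 to 258 UMIs, and their log2 ratios ran from -1.16 to 1.09 (VAT library 2) and from -0.89 to 1.65 (VAT library 3).

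Mitochondrial carriers of the Slc25 family were the largest class, with 23 genes and 33.3% to 35.2% of the set's UMIs. The class was taken by family, and so includes Slc25a17 of peroxisomes and Slc25a46, an outer membrane protein of mitochondrial shape, both named for this reason. The class sum was 1546, 1502 and 1602 CPM, with ratios of 0.971 (0.882 to 1.07) and 1.04 (0.943 to 1.14), and 2 genes were higher and 1 lower. Slc25a5 (ANT2), which exchanges ADP for ATP across the inner membrane, was the most abundant member, with 336, 261 and 251 UMIs or 586, 469 and 457 CPM. Both VAT libraries lay below spleen, at 0.801 (0.679 to 0.945) and 0.781 (0.66 to 0.922), far from 2-fold. Slc25a3, the phosphate carrier that feeds ATP synthase, had 203, 185 and 214 UMIs with VAT values on either side of spleen (0.94, interval 0.766 to 1.15, and 1.1, interval 0.905 to 1.34). Slc25a4 (ANT1), the other ADP/ATP exchanger of this set, had 22 UMIs in every library.

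Both genes called higher in this class were calcium-regulated carriers of ATP-Mg and phosphate. Slc25a24 (chr3:109123149-109168457) had 9, 29 and 41 UMIs in the spleen library, VAT library 2 and VAT library 3. It was higher in VAT by 3.32-fold (1.53 to 7.98) and 4.76-fold (2.28 to 11.1), with both intervals above 1. Slc25a25 (chr2:32414487-32451445), a relative with the same substrate, had 5, 11 and 16 UMIs and ratios of 2.27 (0.727 to 8.33) and 3.34 (1.17 to 11.7), and its exons overlap Naif1 on the other strand (0, 0 and 1 UMIs). It kept its call in 6 of 13 alternative settings, whereas Slc25a24 kept it in all 13. The third such carrier, Slc25a23, had 7, 6 and 15 UMIs and was not called. Summed, the group went from 36.6 CPM in spleen to 82.7 and 131 CPM in VAT, or 2.26-fold (1.32 to 3.99) and 3.58-fold (2.18 to 6.14), and it too was put together with values in view.

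Iron entered the mitochondrial class through mitoferrins. Slc25a37 (mitoferrin 1, chr14:69241848-69285112), which supplies iron for heme and is abundant in erythroid cells, had 15, 7 and 3 UMIs. It was lower in VAT by 2.08-fold (0.797 to 6.02) and 4.78-fold (1.35 to 25.8). Erythroid markers were also lower in VAT, with Hba-a2 at 73, 0 and 0 UMIs. The erythroid membrane exchanger Slc4a1 was at 0 in every library. Without cells holding 2 or more UMIs of other cell type markers, the log2 ratio of Slc25a37 over both VAT libraries went from -1.54 to -1.22. Slc25a37, at the 2-fold edge in VAT library 2, then no longer passed the rule. That filter was not limited to erythroid markers. It kept 249 of 375 spleen cells, 316 of 330 in VAT library 2 and 304 of 314 in VAT library 3. Whether erythroid RNA contributed to the Slc25a37 values was not tested. Slc25a28 (mitoferrin 2), which is found in most cells, had 25, 40 and 26 UMIs and was not called.

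Slc25a11, the oxoglutarate and malate exchanger, had 63, 25 and 56 UMIs, so that VAT library 2 alone stood low at 0.409 (0.247 to 0.66) while VAT library 3 was at 0.929 (0.636 to 1.35). Its exons overlap Rnf167 on the other strand, which had 68, 28 and 32 UMIs, and whether counting used the strand is not given in the sources used here. Slc25a39, a carrier needed for mitochondrial glutathione, had 37, 28 and 45 UMIs. Leaving out Slc25a5 and Slc25a3, the remaining 21 carriers summed to 607, 699.5 and 754 CPM, or 1.15-fold (0.995 to 1.34) and 1.24-fold (1.08 to 1.44). Slc25a5 was lower in VAT, so leaving it out raises these ratios. They were not rescaled to totals free of ribosomal protein genes. The 20 carriers not called ranged in log2 ratio from -1.27 to 1.32 in VAT library 2 and from -0.36 to 1.49 in VAT library 3.

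Ion carriers numbered 14 and summed to 384, 429.8 and 397 CPM, a ratio over both VAT libraries of 1.08 (0.93 with totals free of ribosomal protein genes), with 2 called higher and 0 lower. Slc4a8 (chr15:100761747-100823968), a sodium-driven exchanger of chloride and bicarbonate, had 4, 10 and 16 UMIs and ratios of 2.58 (0.744 to 11.3) and 4.18 (1.35 to 17.2). Abundant ion carriers named here were not called. Slc4a7, a sodium bicarbonate importer, had 33, 29 and 16 UMIs. Slc20a1, a phosphate importer, had 22, 20 and 20 UMIs, and the endosomal exchanger Slc9a9 had 21, 24 and 10, with VAT on both sides of spleen. The 12 ion carriers not called had log2 ratios of -0.5 to 0.93 and -0.97 to 1.43.

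Metal carriers, 14 genes, summed to 303, 388 and 355 CPM, or 1.28-fold (1.04 to 1.57) and 1.17-fold (0.95 to 1.45), with 0 called higher and 1 lower. Over both VAT libraries the ratio was 1.23, and 1.06 with totals free of ribosomal protein genes. Among zinc importers of the Slc39 family, Slc39a6 had 15, 25 and 30 UMIs and Slc39a1 16, 20 and 28, and the 7 importers together stood at 1.47-fold (1.11 to 1.95) and 1.31-fold (0.978 to 1.75). The importer sum includes Slc39a13 with 6, 25 and 11 UMIs, a gene whose VAT libraries were over 2-fold apart, as given below. It was not rescaled to totals free of ribosomal protein genes. The 4 zinc exporters of the Slc30 family summed to 1.36-fold (0.903 to 2.06) and 0.95-fold (0.603 to 1.49). Slc30a1 (chr1:191906767-191913247), which exports zinc across the plasma membrane, had 11, 5 and 5 UMIs and was lower by 2.13-fold (0.683 to 7.83) and 2.1-fold (0.674 to 7.73), with intervals that include no difference. With cells thinned to 800 UMIs its log2 ratio turned positive, at 0.16, and in cells with a Foxp3 UMI at 0.24. Slc30a7, which loads zinc into the Golgi, had 16, 23 and 15 UMIs.

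Heme and iron carriers gave no common direction. Slc48a1, which moves heme out of endolysosomes, had 17, 23 and 29 UMIs. Slc11a2 (DMT1), the ferrous iron importer, had 14, 2 and 10 UMIs, so that VAT library 2 stood low at 0.147 (0.0163 to 0.642) and VAT library 3 did not, at 0.747 (0.297 to 1.81). Slc11a1 (NRAMP1), a phagosomal divalent metal carrier best known in macrophages, had 11, 8 and 6 UMIs, with ratios of 0.75 (0.262 to 2.05) and 0.57 (0.173 to 1.68), beside the higher myeloid marker sum in spleen. The iron exporter Slc40a1 had no UMI.

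Nucleoside and nucleotide sugar carriers, 7 genes, summed to 249, 203 and 193 CPM, with ratios of 0.815 (0.631 to 1.05) and 0.775 (0.597 to 1.0), 0 higher and 1 lower. Slc28a2 (CNT2, chr2:122426477-122461137), which concentrates purine nucleosides such as adenosine with sodium, had 27, 8 and 3 UMIs. Both VAT libraries lay below spleen, by 3.27-fold (1.45 to 8.33) and 8.61-fold (2.65 to 44.3). The end of its mRNA is near-identical to that of Gm14085, which had 27, 2 and 1 UMIs, so reads of these 2 genes may be shared and the value is uncertain. Slc29a1 (ENT1), which equilibrates nucleosides across the plasma membrane, had 32, 17 and 19 UMIs and ratios of 0.548 (0.285 to 1.02) and 0.621 (0.332 to 1.13). Slc29a3, its lysosomal relative, had 15, 18 and 10. Of the Golgi carriers, Slc35a4 had 25, 31 and 38 UMIs and Slc35a5 16, 12 and 15, neither called.

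Vitamin, choline and lipid carriers, 9 genes, summed to 349, 300.3 and 293 CPM, with 1 higher and 0 lower. Slc52a3 (RFVT3, chr2:151996511-152009258), a riboflavin importer, had 1, 14 and 11 UMIs, each in a different cell. With 1 UMI in spleen its ratios of 14.4 (2.20 to 611) and 11.5 (1.67 to 495) have intervals that span over 2 orders of magnitude. Slc52a2, the other riboflavin carrier of the set, had 13, 15 and 14 UMIs. Slc23a1, an ascorbate importer, had 74, 39 and 63 UMIs, with a ratio of 0.544 (0.359 to 0.812) for VAT library 2 and of 0.89 (0.626 to 1.26) for VAT library 3. Slc44a2, a choline carrier, had 52, 32 and 39 UMIs, and Slc27a4, which handles long-chain fatty acids, had 26, 16 and 17, so both lay below spleen in VAT without passing 2-fold.

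Sugar carriers left in the set were 4, summing to 103, 131 and 159 CPM, or 1.28-fold (0.893 to 1.83) and 1.54-fold (1.09 to 2.18), with 2 higher. Slc50a1, a Golgi sugar carrier, held 70.8% of the class with 46, 49 and 60 UMIs. Slc37a3 (chr6:39334773-39377675), a lysosomal member of the sugar phosphate exchanger family, had 2, 9 and 11 UMIs and ratios of 4.64 (0.961 to 44.1) and 5.75 (1.25 to 53.4). Slc2a8 (GLUT8, chr2:32972990-32982083), an intracellular glucose carrier, had 3, 7 and 12 UMIs and ratios of 2.41 (0.549 to 14.4) and 4.18 (1.13 to 23.1). Both rest on few spleen UMIs, and the lower bounds in VAT library 2 are under 1. Slc37a1, a glucose 6-phosphate exchanger, had 8, 8 and 4 UMIs. Slc16a6, the single monocarboxylate family member in the set, had 21, 31 and 38 UMIs (1.52, interval 0.847 to 2.79, and 1.89, interval 1.08 to 3.39), while the lactate carriers Slc16a3, with 2, 9 and 1 UMIs, and Slc16a1, with 5, 5 and 6, were outside it.

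Organic ion and vesicular carriers, 6 genes, were lower as a sum in VAT, with 263, 182 and 191 CPM or 0.69 (0.531 to 0.894) and 0.727 (0.561 to 0.939), although 0 of 6 genes were called in either direction. Slc22a15, which carries organic zwitterions, gave 40.9% of the class with 64, 40 and 42 UMIs. Slc14a1, a urea channel of red cells and kidney, had 21, 11 and 11 UMIs (0.54, interval 0.235 to 1.17, and 0.548, interval 0.238 to 1.19), beside the higher erythroid marker sum in spleen. Without cells holding 2 or more UMIs of other cell type markers it passed the rule as lower. It did so too with totals free of ribosomal protein genes, cells weighted equally, thinning, or the 5% deepest cells left out. The lysosomal sialic acid exporter Slc17a5 had 27, 21 and 26 UMIs, and the vesicular glutamate transporter Slc17a8 15, 12 and 10.

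The name pattern also caught 4 genes that encode no transporter. Slc9a3r1, the NHERF1 scaffold protein, had 92, 107 and 78 UMIs, and Slc7a6os 6, 10 and 5. Slc4a1ap, an adaptor protein, had 33, 4 and 16 UMIs, or 0.125 (0.0322 to 0.352) and 0.507 (0.26 to 0.947), so it missed the rule in VAT library 3 by little. Its exons overlap Supt7l on the other strand, which had 9, 9 and 8. Slc2a4rg-ps (chr2:181384250-181387586), an annotated pseudogene, had 20, 8 and 1 UMIs and was lower by 2.42-fold (1.02 to 6.36) and 19.1-fold (3.06 to 793). Without these 4, the 95 transporter genes summed to 4245, 4282 and 4366 CPM, with 8 higher and 5 lower.

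The 2 VAT libraries differed from each other by 2-fold or more in 16 of 99 members (16.2%), against 11.4% of all genes with 20 or more UMIs. Low counts go with such gaps: among genes with 20 to 49 UMIs it was 22.8% of members and 23.1% of all genes, and among those with 50 or more UMIs 7.14% (3 of 42) and 4.34%. In 22 members the VAT libraries lay on opposite sides of spleen. That share was not computed for all genes, so 22 is no result about the family. The 16 members 2-fold apart include Slc25a37, Slc28a2 and Slc2a4rg-ps of the called genes, and Slc11a2, Slc25a11 and Slc4a1ap, all 3 lowest in VAT library 2. Slc39a13, a zinc carrier named for its gap between the VAT libraries, had 6, 25 and 11 UMIs, and its exons overlap Psmc3 (92, 88 and 88 UMIs) on the other strand.

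Most cells carried some solute carrier mRNA but few carried the same gene. After thinning each cell to 800 UMIs, which kept every cell, 94.9% of spleen cells and 95.5% and 95.2% of VAT cells had a UMI of the set, with a median of 4, 3 and 4 such UMIs per cell. Slc25a5 was found in 27.2% of thinned spleen cells (22.8 to 32.0) and in 20.9% (16.6 to 25.7) and 20.4% (16.1 to 25.3) of VAT cells. Slc7a14 was found in 16.8% (13.2 to 21.0), 7.88% (5.21 to 11.3) and 8.28% (5.48 to 11.9), and Slc38a2 in 6.93% (4.58 to 9.99), 10% (6.98 to 13.8) and 15.6% (11.8 to 20.1). Without thinning the shares depend on depth, and of 375, 330 and 314 cells 101, 49 and 51 had Slc7a14 and 45, 61 and 72 had Slc38a2. Slc25a24 was found in 1.33%, 3.03% and 4.14% of thinned cells and in no more than 21 cells of a library. No cell type lacking these genes was in the sort, so free RNA in the droplets gave no measured background for these shares.

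**Figure D4:**
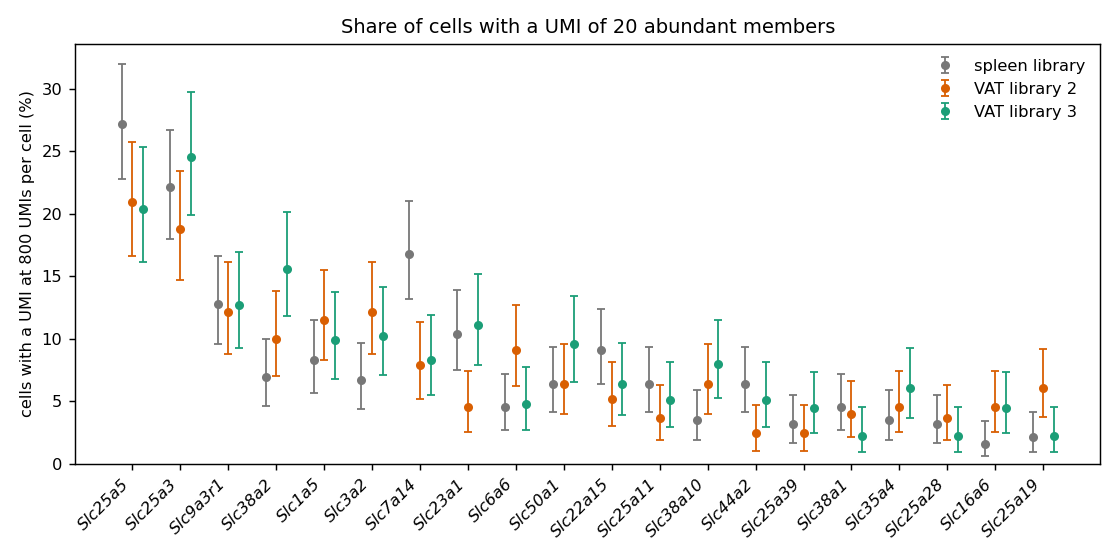
Percent of cells with at least 1 UMI of each of 20 abundant members after thinning to 800 UMIs per cell, with exact Clopper-Pearson 95% intervals, in the spleen library, VAT library 2 and VAT library 3. Slc7a14 is higher in spleen, at 16.8% against 7.88% and 8.28%, and Slc38a2 is lower, at 6.93% against 10% and 15.6%.

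UMIs of a gene tended to fall in the same cells, and not equally for all genes. If the UMIs of a gene fell on cells in proportion to cell depth, a cell with a UMI of a typical member would hold 1.02 to 1.03 of them, and the observed medians were 1.27, 1.25 and 1.23. Over the 42 members with at least 50 UMIs the observed value was 0.98 to 1.91 times the expected one, with a median of 1.37. Slc39a6 (1.91), Slc25a39 (1.83) and Slc25a5 (1.78) were among the most clumped, and Slc25a5 reached 14 UMIs in 1 spleen cell. At the other end 4 abundant genes were close to 1: Slc17a5 (1.03), Slc22a15 (1.02), Slc7a14 (0.99) and Slc23a1 (0.98). These genes were singled out after their values were seen.

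**Figure D5:**
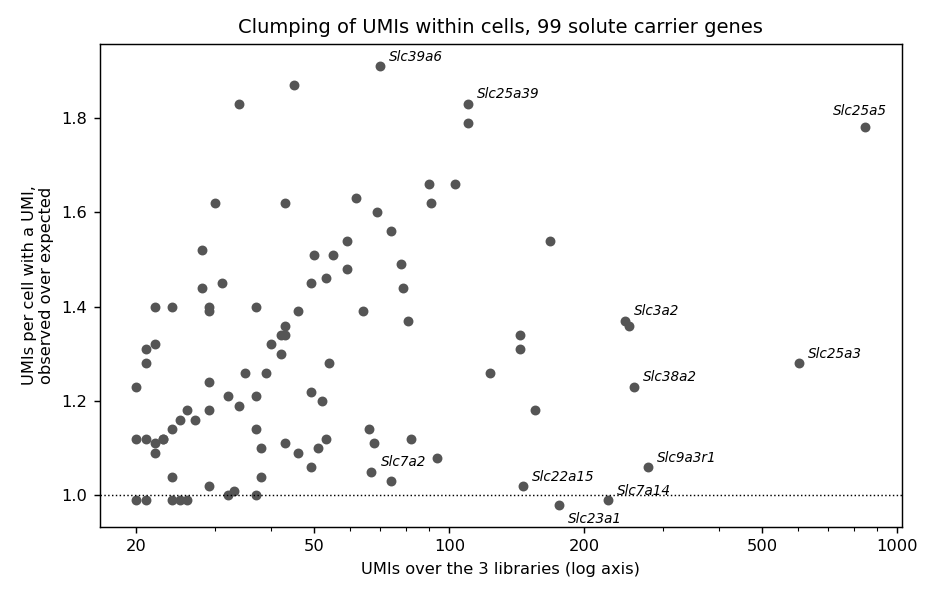
For each of 99 members, the total UMIs over the 3 libraries (x, log axis) and the UMIs per cell with a UMI divided by the number expected from cell depth alone, averaged over libraries (y); the dotted line marks 1. Slc25a5 and Slc39a6 lie near 1.8 and 1.9, and Slc7a14, Slc23a1 and Slc22a15 lie at the line.

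Within a library the set differed little between cells with and without a Foxp3 UMI. Members summed to 4412 CPM (4128 to 4711) in spleen cells with a Foxp3 UMI and 4561 (4346 to 4783) in those without, with 4566 and 4477 for VAT library 2 and 4627 and 4509 for VAT library 3. The 8 genes called higher, which were not chosen on this split, stood at 155 CPM (108 to 215) in cells with and 276 (222 to 339) in cells without a Foxp3 UMI in VAT library 2, whereas in VAT library 3 the values were 279.6 (208 to 368) and 262 (212 to 320.0). The direction was thus not shared by the VAT libraries. For Klrg1, a receptor of differentiated tissue Tregs, cells with a UMI had 4438 CPM of the set (4251 to 4632) and cells without 4949 (4479 to 5455) in VAT library 2, and the order was the opposite in VAT library 3, at 4621 (4434 to 4813) and 3835 (3315 to 4415). Cells with a Foxp3 UMI were deeper in each library, with medians of 1442 against 1391, 1630 against 1544 and 1695 against 1593 UMIs.

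Genes that work beside solute carriers were counted from lists that, like the set, were chosen with earlier results of these data known. Of 28 measured partners and other transport genes 6 were called higher in VAT and 0 lower, with median log2 ratios of 0.48 and 0.56, where 10.5% of all genes were higher and 6.45% lower. They were Emb, a chaperone of monocarboxylate carriers (70, 206 and 163 UMIs), the mitochondrial protein Mtch1 (18, 48 and 39), the calcium pumps Atp2a2 (24, 81 and 62), Atp2b1 (52, 137 and 145) and Atp2b4 (19, 56 and 46), and the glucose carrier Slc2a3 (32, 114 and 83). Of 11 measured genes of the amino acid response 0 were higher and 1 lower (Ddit3, with 15, 5 and 2 UMIs), with medians of -0.37 and -0.29, beside the same shares of all genes. Atf4, the transcription factor of that response, had 104, 196 and 173 UMIs, short of 2-fold in both VAT libraries.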

How the data were processed

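The deposited file holds raw UMI counts by gene symbol (rows) and cell (columns); per the submitters' processing notes TopHat2, SAMtools and the mouse build mm10 were used, without versions. The counting annotation, strand setting, cell filter and doublet removal are not given in the sources used here. Each column matched 1 cell by title. Counts were summed per library and divided by library totals (CPM). The limit set by a count of 0 is 5.23, 5.39 and 5.47 CPM (3 counts) in the spleen library and VAT libraries 2 and 3. Scripts used Python 3.11.15, numpy 2.4.6, pandas 2.3.3, scipy 1.17.1 and matplotlib 3.10.9, with seed 0 for thinning. The size rule was tested on simulated data. Genes were named by rule: called members, the 4 most abundant of each class, and 14 always named; others are marked, and some that the rule names are not reported here. The set, lists and substrate classes were chosen with earlier results of these data known. Gene positions are from GENCODE M21 on GRCm38, which held all 99 symbols; exons of 28 members overlap a gene on the other strand and of 6 a gene on the same strand. No doublet caller was run; the 5% deepest cells of each library were left out as an alternative. Alternatives changed the totals, size factors, weighting of cells, thinning, cells used, count added, UMI minimum and VAT library.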

Additional observations from a re-analysis of the deposited data

How the results depend on the processing

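No paired analysis was possible because groups share a single replicate number and no animal is named. The count of members called higher (8) became 13 in cells with a Foxp3 UMI, 1 with a minimum of 50 UMIs, 20 with a minimum of 1 UMI, and 14 to 16 with 1 VAT library. Of all genes, 12.8% were then higher in cells with a Foxp3 UMI and 13.8% to 15.1% with 1 VAT library. The count called lower (6) became 10 with totals free of ribosomal protein genes, 1 with 50 UMIs, 33 with 1 UMI, and 8 to 12 with 1 VAT library, where 11.4% to 12.6% of all genes were lower. A minimum of 1 UMI adds 105 symbols with 1 to 19 UMIs, where a few counts make a 2-fold call. The share of all genes called at that minimum was not computed, so 20 and 33 are no result about the family. With a minimum of 50 UMIs 10.3% of all genes were higher and 4.4% lower. Leaving out ribosomal protein genes shifted the median log2 ratio of all genes by -0.21 (to -0.24), the split of all genes from 10.5% and 6.45% to 8.44% and 9.68%, the median of members from 0.05 to -0.15, their summed ratio to 0.87, amino acid carriers to 0.94 and mitochondrial carriers to 0.87 (0.92 when thinned). In cells with a Foxp3 UMI (130, 128 and 98 cells) sugar carriers stood at 2.14 and Slc16a6 at 12.90. The whole spleen library held 21 UMIs of Slc16a6 in 9 cells, so its ratio in this subset rests on few spleen UMIs. With 50 UMIs ion carriers were at 0.90 and vitamin carriers at 0.70. Slc30a1 reversed, to 0.16 when thinned and 0.24 in Foxp3 cells. Of 13 alternatives, Slc25a24 stayed called in 13, Slc52a3, Slc28a2, Slc38a6 and Slc7a2 in 12, Slc25a37 in 8, Slc30a1 in 7 and Slc25a25 in 6. Settings with 1 VAT library or a minimum of 1 UMI cannot remove a call. A minimum of 50 UMIs removes every called gene below it, whatever its ratio. These tallies therefore hold passes and losses fixed in advance. Slc25a37 was lost without cells holding 2 or more UMIs of other cell markers. It was also lost in cells with a Foxp3 UMI, with at most 1 UMI per gene and cell, and with 1 added to each count. The causes were not tested. Members had a median of 43 UMIs over the libraries, so small differences of most were not detectable at this depth.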
